A study of Mus musculus with 12 samples.

Results

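Pair S5, a SPOPmut and a SPOPwt library of mouse prostate organoids, was described against the 10 libraries of pairs S0 to S4. S5 was chosen by its measured levels: it is the pair with high keratin and Epcam and low collagen and vimentin. S5 makes up 2 of the 12 libraries, and each side holds the same number of mutant and control libraries. Genes were kept where RPKM (a gene's reads per length of its transcript, scaled to all mapped reads of the library) was at least 1 in both S5 libraries or in at least 5 of the other 10. This left 14776 of 43243 gene names. Zfp599 was the kept gene closest to that limit (1.00 RPKM), and Sfxn4 the closest below it (just under 1.00 RPKM).

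SPOP brings substrate proteins to a cullin ubiquitin ligase and is mutated in prostate cancer. Per the labels' protocols, mouse prostate tissue was digested and grown in Matrigel, a basement membrane extract, in medium with EGF at 5 to 50 ng/ml. The inducible lines carried CreERT2, a recombinase switched on by tamoxifen. It was delivered by virus with puromycin selection (Line_A) or came from a TMPRSS2-CreERT2 transgene (Line_B), and 1 µM 4-hydroxytamoxifen was given overnight. Mutant cells were sorted for GFP and controls passed a sham sort. A noninducible line with Cre under the probasin promoter and the R26F133V allele is also described. By the protocols 5 pairs came from a model A and 1 from a model B, but no label ties a library to a model, an allele, a mouse strain or an age. Whether libraries of a group came from separate animals or cultures is not stated, so p-values cover only the spread among the libraries, which may be technical.

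The prostate gland is lined by an epithelium of basal cells, which rest on the basement membrane and hold keratins 5 and 14, and of luminal cells above them, which secrete. Epithelial cells are held together by desmosomes, adherens junctions and tight junctions. Mesenchymal cells lack these contacts and secrete a fibrillar matrix of collagens and fibronectin. Factors of the ZEB, SNAIL and TWIST families bind a short sequence called the E-box and are known to repress epithelial genes, while p63, the Grainyhead-like factors and the ESRP splicing regulators are typical of epithelium.

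Depth, estimated from the spacing of low values, was 28260000 to 41000000 reads per library, and 13012 to 13885 genes reached 1 RPKM. On the log2(RPKM + 1) scale, the S5 mutant and control correlated at 0.984 across genes. The libraries of S0 to S4 correlated with one another at 0.874 to 0.997, and with S5 at 0.691 to 0.743. Spop stood at 48.5 RPKM in the S5 mutant, 39.97 RPKM in the S5 control and 44.6 to 57.0 RPKM in the others. The labels give an index sequence, and S5 has its own, but an index does not name a sequencing run. Whether S5 was run apart is not stated, so the S5 side and any difference between runs cannot be told apart.

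A gene was counted as higher in S5 where its mean log2(RPKM + 1) exceeded that of the other 10 libraries by at least 2 (a fold of 4 on that scale) and both S5 libraries lay above all 10. It was counted as lower under the mirror rule. By this count 615 genes were higher (4.16% of those kept) and 658 were lower (4.45%). The counts given below for each gene list are to be read beside these shares. Without the size limit, the S5 libraries lay above all others in 3869 genes (26.2%) and below all others in 3906 (26.4%), and they overlapped the others in 7001. The median difference over all kept genes was -0.01. Because S5 was set apart by its levels, these counts carry no test. Of the 615 genes, 422 were kept only through S5 and so had to be high there, and 442 of the 658 were kept only through S0 to S4. At the limits of the count, Ahnak was just inside for the higher genes and Dzip1 for the lower ones, and Nhsl1 (1.99) was just outside.

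**Figure D1:**
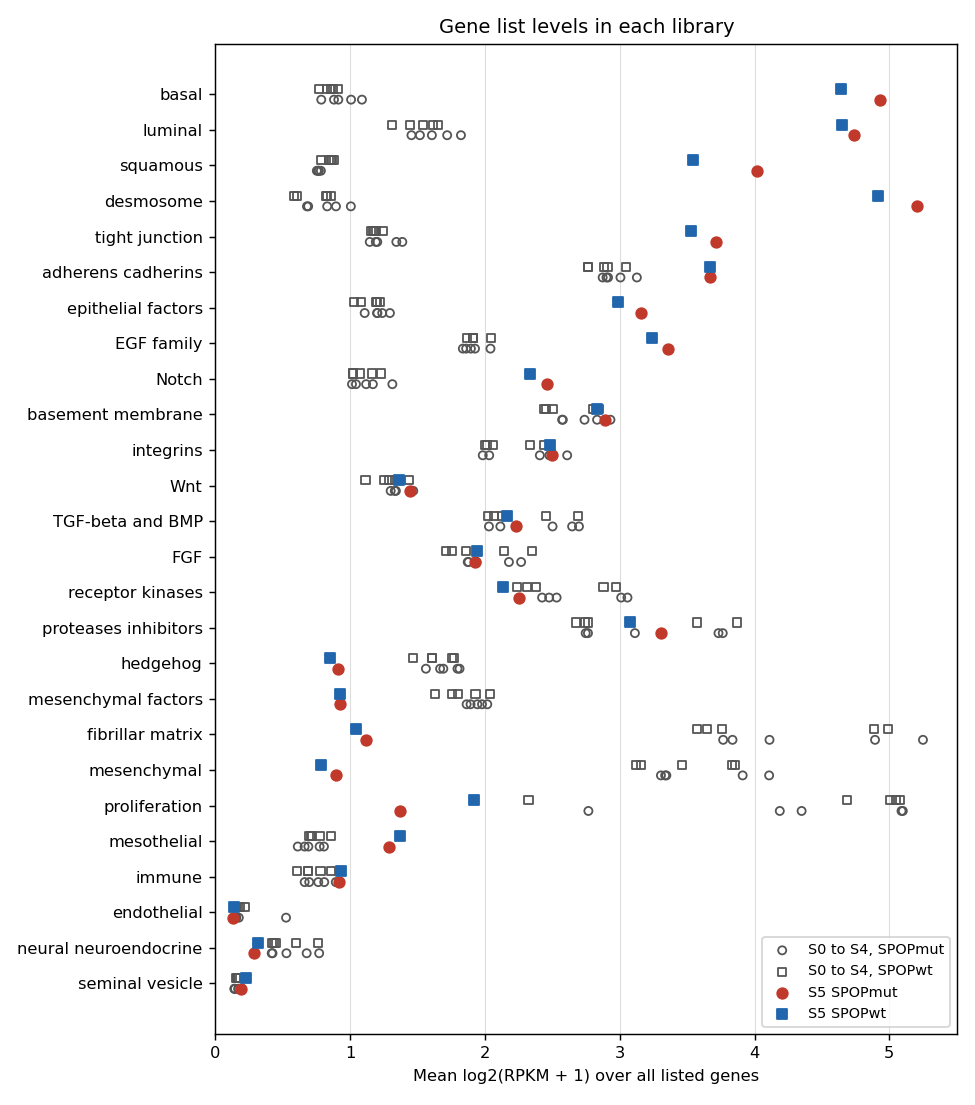
Mean log2(RPKM + 1) over all genes of each list (rows), with 1 point per library: open symbols are S0 to S4, filled symbols are S5, circles are SPOPmut and squares SPOPwt. The basal mean is 4.93 and 4.64 in the S5 mutant and control against 0.77 to 1.09 in the others, and the fibrillar matrix mean is 1.12 and 1.04 against 3.57 to 5.25.

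Basal, luminal and squamous genes were high in S5 together. Of 24 listed basal genes 21 were kept and 17 were counted as higher (median difference 4.44). Of 25 luminal genes 19 were kept, with 14 higher and 1 lower (median 4.93). Of 26 squamous genes 18 were kept and 13 were higher (median 3.93). Of these higher genes, 11, 9 and 12 were kept only through S5. Krt5 was at 1705 RPKM in the S5 mutant and 1194 in the S5 control, against 0 to 0.241 (median 0.0305) in S0 to S4, and Epcam was at 88.6 RPKM in the S5 mutant and 96.3 in the S5 control, against 0 to 1.28 (median 0.0221) in S0 to S4. Since S5 was selected on these genes, their levels describe it and are no check of its label.

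Among the basal genes, Krt17, a keratin of basal and activated epithelium, stood at 189.9 RPKM in the S5 mutant and 124 in the S5 control, against 0 to 0.0343 (median 0) in S0 to S4 (difference 7.26). Trp63, the basal cell factor p63, stood at 12.4 and 11.01 RPKM in S5, above the 0.112 to 2.28 RPKM of the others (median 0.283, difference 3.01). Perp, a desmosomal membrane protein, stood at 392.2 and 305 RPKM against 0.218 to 2.16 (median 0.332). These genes were counted as higher, which by the rule places both S5 libraries above every other library. The 4 kept basal genes that were not counted were Gjb2, Aqp3, Cd109 and Dst. Dst, a linker of hemidesmosomes, was at 8.53 and 8.46 against 9.47 to 13.4 RPKM, and Cd109, a surface protein of basal cells, was at 3.87 and 1.93 against 1.95 to 15.1 RPKM, so neither was higher in S5.

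The luminal genes high in S5 included keratins, surface proteins and a secreted one. The simple keratins were counted as higher: Krt8 at 339.9 and 247 against 1.44 to 21.5 RPKM, Krt18 at 599 and 598 against 6.35 to 89.6 and Krt19 at 336 and 413 against 7.06 to 72.2. Also higher was Psca, a surface antigen of prostate progenitor and luminal cells (38.7 and 39.9 against 0 to 0.0346 RPKM). Wfdc2, a secreted antiprotease, stood at 355 RPKM in the S5 mutant and 514 in the S5 control, against 0.00170 to 0.907 (median 0.154) in S0 to S4, and Ly6d, a marker of progenitor-like luminal cells, at 636 RPKM in the S5 mutant and 317 in the S5 control, against 0 to 0.107 (median 0) in S0 to S4. Tmprss2, a transmembrane protease whose promoter drives the recombinase in Line_B, stood at 8.504 and 7.67 against 0 to 0.1504 RPKM (difference 3.12). Pbsn, Msmb and Spink3, secretory products of the mouse prostate, were listed at 0 in all 12 libraries.

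Hoxb13, a homeobox factor of prostate, stood below all others without being counted, at 5.04 and 4.43 RPKM against 10.3 to 29.9 (difference -1.51). Fkbp5, a chaperone gene that responds to steroid hormones, was the 1 luminal gene counted as lower, at 1.72 and 1.56 RPKM against 9.24 to 30.3 (median 24.8, difference -3.05). Foxa1, a pioneer factor that opens closed chromatin, overlapped between the sides (19.3 and 18.0 against 5.60 to 25.2 RPKM).

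Squamous genes, which mark stratified and cornifying epithelium, were strong in S5. Krt6a, a keratin of wounded and stratified epithelium, stood at 838 RPKM in the S5 mutant and 440.3 in the S5 control, against 0 to 0.104 (median 0.00589) in S0 to S4 (difference 9.21). Sprr1b and Sprr2a3, small proline-rich proteins of the cornified envelope, stood at 85.4 and 46.0 against 0 to 0.163 RPKM and 115 and 89.5 against 0.107 to 0.890 RPKM. Ivl, involucrin of the same envelope, stood at 115 and 33.9 against 0.274 to 2.83 RPKM, with the mutant well above the control within S5. The Sprr genes are near-identical copies, and how reads shared among them were counted is not given in the sources used here. Some terminal products were low even in S5: the S5 mean was 0.409 RPKM for Krt1, 0.0654 for Flg (filaggrin) and 0.0967 for Krtdap. Lor (loricrin) stood at 1.31 and 1.49 RPKM. Other members of the list were counted as higher. Tgm1 stood at 16.7 and 14.1 against 0.0353 to 0.118 RPKM and Dmkn at 21.6 and 9.39 against 0 to 0.0158 RPKM. Sbsn stood at 28.2 and 18.9 against 0.326 to 1.46 RPKM.

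On the mesenchymal side, 18 of 26 listed genes were kept, of which 14 were counted as lower and 2 as higher (median -4.0). Of the 14, 13 were kept only through S0 to S4. Col3a1, a fibrillar collagen, stood at 0.154 and 0.107 RPKM in S5 and at 379.9 to 819 RPKM in the others (median 534, difference -8.88), the most negative difference among the named genes. Vim stood at 0.0370 and 0.0582 against 213 to 525 RPKM. S100a4, a calcium-binding protein of motile cells, stood at 8.52 and 5.001 RPKM against 1290.1 to 2266, so it was low but present in S5. Acta2, smooth muscle actin, stood at 2.26 RPKM in the S5 mutant and 0.648 in the control, against 107 to 758 (median 187). Nt5e and Pdpn, surface proteins found on fibroblasts and on some basal epithelia, ran the other way, at 13.2 and 14.4 against 0.0586 to 0.453 RPKM and 15.99 and 15.2 against 0.217 to 1.55 RPKM. Several defining fibroblast and muscle markers were near 0 on both sides. In S0 to S4 the highest value was 0.0204 RPKM for Thy1, 0.121 for Fap, 0.267 for Des and 1.59 for Lum, and Col1a2 reached only 0.673 to 12.9 RPKM beside Col1a1 at 269 to 848. The name "mesenchymal-like" for S0 to S4 thus rests on collagen, vimentin, matrix and receptor genes and not on those markers.

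Markers of other cells were mostly absent from S5. The immune list had 3 of 10 genes kept, the endothelial list 1 of 10, the neural and neuroendocrine list 2 of 10 and the seminal vesicle list 1 of 8, with none counted as higher or lower. Their list means on the log2(RPKM + 1) scale in S5 were 0.92 and 0.93 (immune), 0.13 and 0.14 (endothelial), 0.29 and 0.31 (neural) and 0.19 and 0.23 (seminal vesicle), mutant before control. In S0 to S4 they were 0.61 to 0.89, 0.14 to 0.52, 0.42 to 0.77 and 0.14 to 0.18. The immune mean was thus slightly above the others in S5, with Cd14, a receptor for bacterial lipopolysaccharide, at 20.4 and 20.3 against 5.34 to 16.8 RPKM and Csf1r at 3.83 and 3.21 against 1.09 to 1.80 RPKM, while Ptprc (CD45) did not exceed 0.00193 RPKM in any library. Of 11 mesothelial genes 2 were kept, and both were higher in S5: Msln (mesothelin) at 308 and 519.6 RPKM against 31.8 to 194 (median 92.0), and Bnc1 (basonuclin, also a factor of basal keratinocytes) at 26.5 and 22.8 against 0.373 to 2.83 RPKM. Wt1 and Lrrn4, other defining mesothelial genes, were at or near 0 throughout. In such bulk libraries, fewer cells of a type and less RNA per cell cannot be told apart.

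Cell adhesion genes differed by junction type. All 12 desmosome genes were kept, and 10 were higher in S5 (median 4.13), 9 of them kept only through S5. Dsp, desmoplakin, which ties desmosomes to keratin, stood at 103 RPKM in the S5 mutant and 79.1 in the S5 control, against 0.0607 to 0.601 (median 0.154) in S0 to S4 (difference 6.22). Pkp1, a plakophilin of stratified epithelium, stood at 73.8 RPKM in the S5 mutant and 73.7 in the S5 control, against 0.00599 to 0.260 (median 0.0239) in S0 to S4. Dsg3, the desmoglein of basal layers, was at 107 and 79.4 RPKM and did not exceed 0.0311 RPKM elsewhere. The exceptions were Pkp2, a plakophilin of simple epithelia and heart (3.04 and 2.96 against 0.348 to 3.16 RPKM), and Ppl, periplakin (24.7 and 21.1 against 2.27 to 17.4 RPKM).

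Among 19 tight junction and polarity genes, 17 were kept and 8 were counted as higher (median 1.98), all 8 kept only through S5. Cldn4, a sealing claudin, stood at 891 RPKM in the S5 mutant and 672 in the S5 control, against 0 to 3.64 (median 0.0242) in S0 to S4 (difference 9.06), where the S3 mutant was the highest of the other 10. Ocln, occludin, stood at 10.8 and 9.61 against 0.0564 to 0.402 RPKM, and Crb3, the apical polarity protein Crumbs, at 20.03 and 15.8 against 0 to 0.160 RPKM. The scaffold gene Tjp1 lay above all others by less than the limit, with a difference of 0.73. Cldn7, at 2.10 and 1.94 RPKM against 0.00679 to 0.436, also lay above all others by less than the limit (difference 1.48). No tight junction gene was counted as lower.

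The cadherins divided by type. Cdh1, E-cadherin, stood at 128 RPKM in the S5 mutant and 127 in the S5 control, against 0.173 to 1.34 (median 0.291) in S0 to S4 (difference 6.46), and Cdh3, P-cadherin of basal cells, at 45.7 RPKM in the S5 mutant and 40.2 in the S5 control, against 4.40 to 8.18 (median 6.24) in S0 to S4 (difference 2.64). Cdh2, N-cadherin, was at 0.00366 RPKM in the S5 mutant and 0 in the control, against 2.96 to 20.5 (difference -3.09), and Cdh11, the cadherin of mesenchymal cells, was lower as well (0.143 and 0.137 against 5.99 to 41.9 RPKM). The catenins that bind all of them were present on both sides and differed by less than the limit. Ctnna1 overlapped at 114 and 143 against 83.4 to 146 RPKM. Ctnnb1 (beta-catenin) lay above all others, at 216 and 221 against 97.6 to 169 RPKM (difference 0.87). Of 13 genes in this list 11 were kept, with 4 higher and 2 lower. Nectins 1 and 4, listed as Pvrl1 and Pvrl4, were also higher, at 26.6 and 23.8 against 1.69 to 3.03 RPKM and 18.9 and 16.2 against 0.00156 to 0.289 RPKM. Of 7 gap junction genes 5 were kept and 0 counted as higher, and Gjc1, a connexin of muscle and fibroblasts, was lower at 0 and 0.00488 against 4.77 to 7.33 RPKM.

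The promoters of Epcam, Cldn4 and Dsp are shown as examples of genes counted as higher in S5. Cldn4 and Dsp are in the junction lists. Epcam is in the luminal list and is a gene by which S5 was chosen. No window was available for Cdh1. The E-box CAGGTG, read on either strand as CAGGTG or CACCTG, is the sequence bound by ZEB and SNAIL factors. Sequences are from RefSeq on GRCm38.p6 and run from 250 bases before to 50 bases after the annotated start, written 5′ to 3′ on the gene's strand, with each match in capitals. The genes and the motif were chosen after their values were seen.
Epcam, chr17:87635729-87636028, plus strand: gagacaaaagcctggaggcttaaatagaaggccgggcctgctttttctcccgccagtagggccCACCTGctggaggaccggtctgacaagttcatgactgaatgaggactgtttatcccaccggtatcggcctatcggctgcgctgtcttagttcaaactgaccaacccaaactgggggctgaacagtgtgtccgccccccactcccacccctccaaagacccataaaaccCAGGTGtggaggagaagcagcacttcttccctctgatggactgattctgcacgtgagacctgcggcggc
Cldn4, chr5:134946885-134947184, minus strand: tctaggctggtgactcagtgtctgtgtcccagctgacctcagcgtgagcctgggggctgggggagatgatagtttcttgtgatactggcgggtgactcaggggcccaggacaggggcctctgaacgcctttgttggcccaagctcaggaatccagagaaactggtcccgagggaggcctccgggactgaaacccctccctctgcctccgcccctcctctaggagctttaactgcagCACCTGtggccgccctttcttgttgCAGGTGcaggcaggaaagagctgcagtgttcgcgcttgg
Dsp, chr13:38151044-38151343, plus strand: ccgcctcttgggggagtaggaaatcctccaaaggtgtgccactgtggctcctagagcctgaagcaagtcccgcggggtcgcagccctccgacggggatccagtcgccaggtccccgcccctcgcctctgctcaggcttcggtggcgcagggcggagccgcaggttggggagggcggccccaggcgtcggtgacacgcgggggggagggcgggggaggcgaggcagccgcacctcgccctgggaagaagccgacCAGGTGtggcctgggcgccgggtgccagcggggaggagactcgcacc

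In the Epcam window the matches began 187 and 19 bases before the start, in Cldn4 14 bases before and 11 bases after it, and in Dsp 3 bases after it. At least 1 match was present in 20.03% of all 27025 promoter windows and in 16.85% of those of kept genes (9027 with a window). The share was 38.8% for genes counted as higher in S5 (149 of 384 with a window) and 14.22% for those counted as lower (61 of 429). Of the junction genes with a window, 10 of 19 (52.63%) held a match. These shares describe the letters in the windows. Neither binding nor any effect of the sequence was measured.

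Transcription factor genes split the same way. Of 31 listed epithelial factors and splicing regulators 27 were kept, with 11 higher and 0 lower (median 1.77), 10 of the 11 kept only through S5. Of 49 mesenchymal factors 28 were kept, with 14 lower and 1 higher (median -1.71), 12 of the 14 kept only through S0 to S4. The highest S0 to S4 value of the Grainyhead-like genes was 0.129 RPKM for Grhl2, 0.0780 for Grhl1 and 0.0214 for Grhl3.

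Grhl2, a factor that maintains epithelial junction genes, stood at 14.7 and 19.0 RPKM in S5, and Grhl1 at 9.17 and 9.10. Trim29, a p63-linked regulator of basal cells that is listed with the factors, stood at 64.5 and 55.5 against 0.0426 to 0.420 RPKM. All of these were counted as higher, which by the rule places S5 above every other library. Esrp1, which directs epithelial splice forms, stood at 17.001 RPKM in the S5 mutant and 24.5 in the S5 control, against 0 to 0.0868 (median 0.000528) in S0 to S4. Its relative Esrp2 differed within S5, at 48.1 RPKM in the mutant and 23.6 in the control, against 0.385 to 0.916 in the others. Several epithelial factors were present on both sides. Klf5 (23.2 and 28.6 against 3.74 to 11.8 RPKM) and Sox9 (50.2 and 43.4 against 6.91 to 18.1 RPKM) lay above all others by less than the limit, Sox2 overlapped (9.40 and 8.55 against 5.61 to 11.3 RPKM), and Gata3 lay below all others (5.49 and 4.51 against 6.53 to 10.8 RPKM).

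The mesenchymal factors were not uniformly low in S5. Twist1, a factor of mesenchymal transition, was at 0.0183 RPKM in the S5 mutant and 0 in the control, against 19.1 to 29.7 (median 24.5, difference -4.64). Zeb1, a repressor of E-cadherin, was at 0.0249 and 0.0181 RPKM against 9.31 to 15.1 (difference -3.67), and Snai1 at 0.120 and 0.149 against 5.84 to 16.6. Snai2, in contrast, was at 25.5 and 24.2 RPKM in S5 and at 11.3 to 28.8 RPKM in the others (median 17.68, difference 0.45), so the sides overlapped. Factors of the embryonic mesenchyme of the urogenital tract and body wall were also low. Osr1 stood at 1.12 and 0.917 against 32.7 to 59.4 RPKM, Tbx18 at 0.00626 and 0.00517 against 10.4 to 30.6 and Foxf1 at 0.0122 and 0.0198 against 10.9 to 17.01. Sox11 was the 1 gene of the list counted as higher, at 7.17 RPKM in the S5 mutant and 6.31 in the S5 control, against 0.0390 to 0.132 (median 0.0723) in S0 to S4. Runx1, Runx2, Ets1, Tbx3 and Nr2f2 differed by less than the limit, with differences from -0.67 (Ets1) to 1.03 (Runx1).

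**Figure D2:**
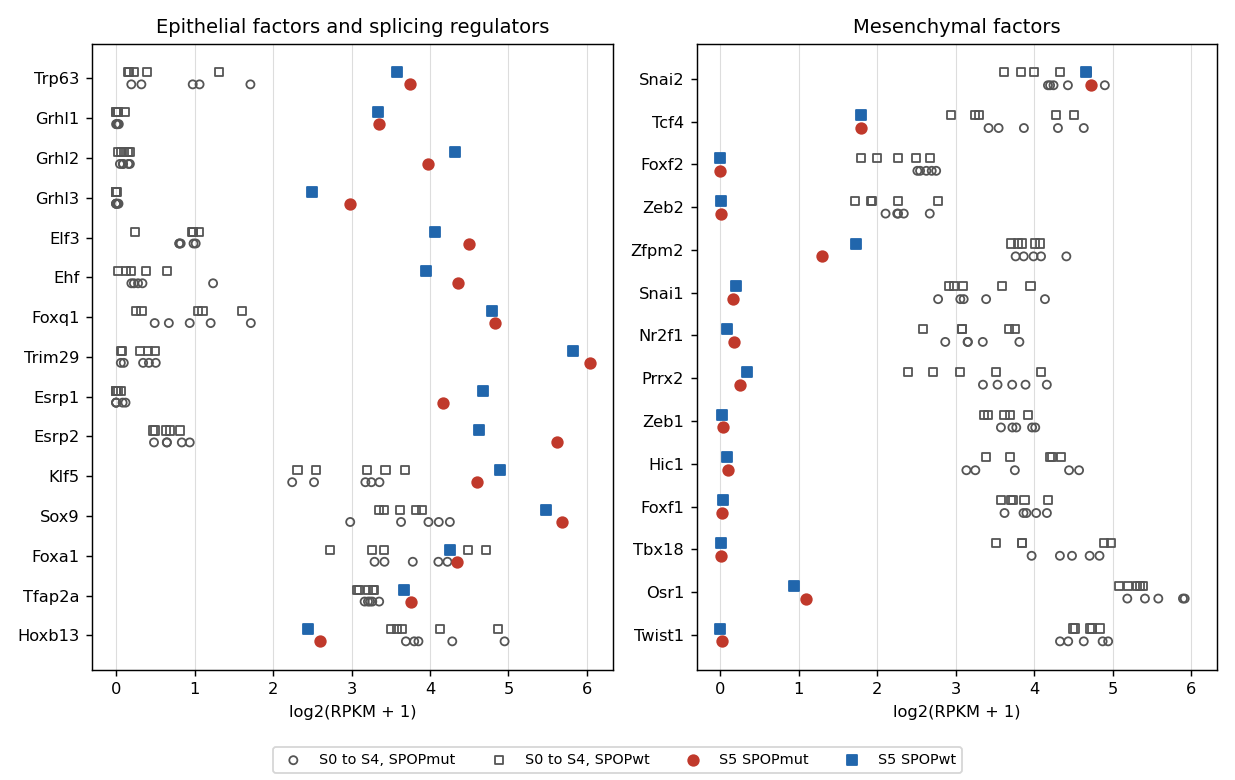
Level of each factor gene (rows) as log2(RPKM + 1), 1 point per library, with open symbols for S0 to S4, filled symbols for S5, circles for SPOPmut and squares for SPOPwt. Grhl2 and Esrp1 lie near 0 in all open symbols, Twist1, Zeb1 and Tbx18 near 0 in the filled ones, and Snai2 and Foxa1 overlap.

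The Hox genes, which mark position along the body axis, held 2 genes counted as higher, both in the HoxD cluster and kept only through S5. Of 39 listed 23 were kept, and 0 were lower (median -0.09). Over all kept genes 4.16% were higher and 4.45% lower, and the small count in this list was not tested against that. Hoxd13 stood at 25.0 RPKM in the S5 mutant and 20.4 in the S5 control, against 0 to 0.0840 (median 0.0110) in S0 to S4 and Hoxd10 at 4.40 RPKM in the S5 mutant and 5.94 in the S5 control, against 0 to 0.0848 (median 0.00728) in S0 to S4. Between them, Hoxd11 was at 2.42 and 3.62 RPKM against at most 0.0189 and missed the limit (difference 1.98). The differences of Hoxd9 and Hoxd8, the next genes of the cluster on chromosome 2, were 1.45 and 0.95. Outside HoxD, Hoxa10 overlapped (16.3 and 14.8 against 12.2 to 19.1 RPKM), and Hoxb9 lay below all others by less than the limit (10.2 and 11.2 against 17.66 to 23.3 RPKM), as did Hoxb13.

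Fibrillar matrix genes were low in S5 almost throughout. Of 36 listed 32 were kept, with 24 lower and 1 higher (median -3.22), 22 of the 24 kept only through S0 to S4. Fn1, fibronectin, stood at 14.4 and 15.7 RPKM in S5 and at 239.8 to 685 in the others (median 419.8, difference -4.66). Sparc, a collagen-binding glycoprotein, stood at 13.9 and 8.25 against 421 to 846 RPKM, and Lox, which cross-links collagen, at 0.0609 and 0.0343 against 75.8 to 265 RPKM (difference -7.05). Fn1 and Sparc were thus detectable in S5, while Lox, Col5a1 (0.0425 and 0.0179 against 78.0 to 136 RPKM) and Col6a1 (0.132 and 0.0812 against 98.2 to 437 RPKM) were near 0. The other members included matricellular proteins and collagens. Tnc, tenascin C of wound and tumour stroma, was the 1 gene counted as higher, at 80.8 RPKM in the S5 mutant and 99.3 in the S5 control, against 10.04 to 30.0 (median 16.3) in S0 to S4 (difference 2.33). Thbs1, thrombospondin, was among the most abundant matrix genes on either side, at 578 and 428 RPKM in S5 and 119 to 482 in the others (median 202), and it overlapped. Fbln2 and Col8a1 overlapped too, at 30.9 and 30.0 against 5.47 to 48.7 RPKM and 22.5 and 31.4 against 7.27 to 29.6 RPKM. Col12a1 (2.75 and 1.16 against 3.53 to 12.4 RPKM) and the proteoglycan gene Bgn (0.226 and 0.0660 against 0.227 to 17.8 RPKM) lay below all others by less than the limit.

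In the basement membrane list, 26 genes were listed and 20 kept, and the 6 higher and 7 lower members sorted by chain (median 0.09). Among the higher ones were 2 chains of the hemidesmosome laminin, Lama3 (41.1 and 22.9 against 0.0748 to 0.604 RPKM) and Lamb3 (33.99 and 20.6 against 0 to 0.0945 RPKM), with Lama5 (63.4 and 88.6 against 6.38 to 19.8 RPKM), Col17a1 (115 and 102 against 0.0161 to 0.0977 RPKM) and Col4a4 (3.13 and 3.58 against 0.0281 to 0.0703 RPKM). Col17a1 encodes the transmembrane collagen of hemidesmosomes. The lower ones were the widespread chains and linkers. Col4a1 and Col4a2, the common collagen IV chains, stood at 10.3 and 9.74 against 78.4 to 159 RPKM and 15.6 and 16.6 against 49.1 to 108 RPKM. Nid1 and Nid2, the nidogens that join laminin to collagen IV, had differences of -3.56 and -4.45. Hspg2, perlecan, had a difference of -3.43, Lamc1 of -2.41 and Lama4 of -3.47. Lamb1 and Col18a1 differed by -0.69 and 0.64 and were not counted.

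Integrins, the receptors for these proteins, were split as well. Itgb4, the hemidesmosome chain that binds the epithelial laminins, stood at 69.0 RPKM in the S5 mutant and 71.6 in the S5 control, against 0.0488 to 0.908 (median 0.153) in S0 to S4 (difference 5.79). Its partner Itga6 was higher by 2.01 (29.9 and 29.4 against 2.91 to 10.5 RPKM). Itgb6 and Itga2 were also higher, at 4.69 and 3.11 against 0 to 0.0549 RPKM and 9.27 and 7.45 against 0.0153 to 4.90 RPKM. Itga5, the fibronectin receptor chain, was lower, at 11.2 and 8.39 RPKM against 49.4 to 92.7 (difference -2.70). The shared chain Itgb1 was abundant on both sides (141 and 139 against 156 to 262 RPKM). In all 19 integrins were listed and 13 kept.

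Among proteases and their inhibitors, membrane-bound enzymes of epithelium were high in S5 and several secreted ones low. Of 28 listed 26 were kept, with 8 higher and 10 lower (median -0.24). St14 (matriptase) and Prss8 (prostasin), membrane serine proteases of epithelium, stood at 46.3 and 33.0 against 0 to 0.198 RPKM and 24.2 and 14.4 against 0.0450 to 0.272 RPKM, and their inhibitors Spint1 and Spint2 at 58.6 and 43.6 against 0.0142 to 0.262 RPKM and 112 and 128 against 1.62 to 8.88 RPKM. Plau, urokinase, was higher (167 and 102 against 14.0 to 51.6 RPKM) and Plat, the tissue-type activator, lower (3.04 and 1.44 against 20.2 to 56.5 RPKM). Mmp15, a membrane-type metalloprotease, was higher by 3.82, whereas the secreted Mmp2 and Mmp3 were lower by log2 differences of -5.72 and -4.66. Mmp14, which activates Mmp2, overlapped (95.0 and 113 against 59.4 to 178 RPKM). Timp1 and Timp3, metalloprotease inhibitors, were lower (4.59 and 5.61 against 64.9 to 109 RPKM and 3.38 and 9.05 against 26.5 to 51.6 RPKM), and Timp2 lay below all others by less than the limit (difference -1.35).

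Signalling genes high in S5 included some ligands of the EGF receptor family. Of 15 listed genes 13 were kept, with 5 higher and 1 lower (median 1.64), 4 of the 5 kept only through S5. Areg, amphiregulin, stood at 76.9 RPKM in the S5 mutant and 59.3 in the S5 control, against 0 to 1.74 (median 0.815) in S0 to S4 (difference 5.32), and Epgn, epigen, at 20.7 RPKM in the S5 mutant and 19.4 in the S5 control, against 0.0346 to 0.105 (median 0.0744) in S0 to S4. Tgfa and Hbegf, further ligands, stood at 9.19 and 8.62 against 0.265 to 0.958 RPKM and 23.8 and 26.5 against 1.09 to 7.22 RPKM. Each of the 4 ligands was counted as higher, which by the rule places S5 above all other libraries. Among the receptors, Erbb3 was higher (13.2 and 11.2 against 0.0131 to 0.154 RPKM) while Egfr itself overlapped (8.34 and 7.64 against 7.14 to 16.1 RPKM). Errfi1, an inhibitor of the receptor, was lower (21.6 and 18.8 against 56.2 to 125 RPKM), and Lrig1, another, lay below all others by less than the limit (18.2 and 16.4 against 34.8 to 53.3 RPKM). EGF was also supplied in the medium of all lines.

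In the FGF family, 13 of 20 listed genes were kept, with 2 higher and 3 lower (median 0.27), all 3 kept only through S0 to S4. Fgf7, the mesenchymal growth factor for epithelium, stood at 0.332 RPKM in the S5 mutant and 0.230 in the S5 control, against 25.2 to 64.9 (median 42.9) in S0 to S4 (difference -5.13). Fgfr1, the receptor of mesenchymal cells, was at 0.154 and 0.0994 RPKM against 14.9 to 40.4 (difference -4.44), while Fgfr2, which binds Fgf7 in its epithelial splice form, overlapped (5.29 and 4.51 against 2.14 to 6.51 RPKM). RPKM per gene does not separate splice forms. Fgfbp1, a carrier that releases FGFs from matrix, was at 300.2 RPKM in the S5 mutant and 217 in the S5 control, against 0.155 to 3.81 (median 1.86) in S0 to S4 (difference 6.68). Spry4, a feedback inhibitor, was lower (0.276 and 0.440 against 3.17 to 16.7 RPKM), and Dusp6, another, lay above all others by less than the limit (difference 1.51).

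The PDGF ligands were split, and both receptor genes were lower in S5. Pdgfa stood at 23.9 and 18.0 against 1.89 to 4.44 RPKM and Pdgfb at 9.05 and 5.19 against 0.00853 to 1.39 RPKM, both higher in S5. Pdgfc overlapped (2.44 and 2.99 against 1.20 to 6.09 RPKM), and Pdgfd was lower (0.105 and 0.0277 against 5.85 to 18.1 RPKM, difference -3.34). Pdgfra was at 0.0696 and 0.0255 RPKM against 3.64 to 38.8 (difference -3.86), and Pdgfrb at 0.0675 and 0.0337 against 13.7 to 91.2 (difference -5.12). In the list of receptor kinases and their ligands that holds these genes, 27 of 33 were kept, with 6 higher and 8 lower (median -0.43), 7 of the 8 kept only through S0 to S4. Epha1 and Mst1r, epithelial receptors, were higher (differences 3.35 and 2.68), and Met overlapped (24.5 and 25.1 against 17.3 to 33.7 RPKM). The insulin-like growth factor binding proteins diverged, with Igfbp3 higher (89.6 and 68.4 against 1.07 to 23.9 RPKM) and Igfbp4 lower (0.137 and 0.269 against 18.6 to 87.1 RPKM).

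Notch genes were high in S5 at each level of the pathway. Of 18 listed 11 were kept, with 6 higher and 0 lower (median 2.53), 5 of the 6 kept only through S5. The ligand genes Jag1 and Jag2 stood at 97.3 RPKM in the S5 mutant and 89.8 in the S5 control, against 0.678 to 2.87 (median 0.874) in S0 to S4 and at 23.2 and 27.9 against 0.0660 to 0.560 RPKM. Dll1 was higher with a gap between the S5 libraries (10.8 RPKM in the mutant and 5.38 in the control, against at most 2.11). Of the receptors, Notch3 was higher (12.05 and 12.5 against 0.450 to 1.63 RPKM), Notch1 lay above all others by less than the limit (18.7 and 14.7 against 3.28 to 5.76 RPKM), and Notch2 lay below them (13.2 and 10.4 against 13.6 to 23.0 RPKM). The target genes Hes1 and Nrarp stood at 83.3 RPKM in the S5 mutant and 63.8 in the S5 control, against 1.23 to 6.61 (median 2.49) in S0 to S4 and at 17.66 and 12.3 against 0.0824 to 0.549 RPKM.

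Wnt ligands were split by type. Of 39 listed genes 20 were kept, with 4 higher and 2 lower (median -0.14). Wnt7a stood at 30.7 RPKM in the S5 mutant and 32.1 in the S5 control, against 0 to 0.291 (median 0) in S0 to S4 (difference 4.95), Wnt4 at 8.68 and 7.38 against 0.00644 to 0.0906 RPKM and Wnt7b at 36.8 and 34.9 against 1.41 to 10.2 RPKM. Wnt5a, a ligand typical of mesenchyme, was lower at 3.78 and 3.84 against 13.9 to 28.9 RPKM (difference -2.07), as was Wnt5b (0.0334 and 0.0599 against 0.842 to 16.2 RPKM). Lgr4, a receptor for R-spondins, was higher (14.1 and 14.1 against 0.916 to 1.89 RPKM). Axin2, a target gene of beta-catenin signalling, was at 1.82 and 0.871 RPKM against 2.03 to 5.59, below all others and not counted.

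**Figure D3:**
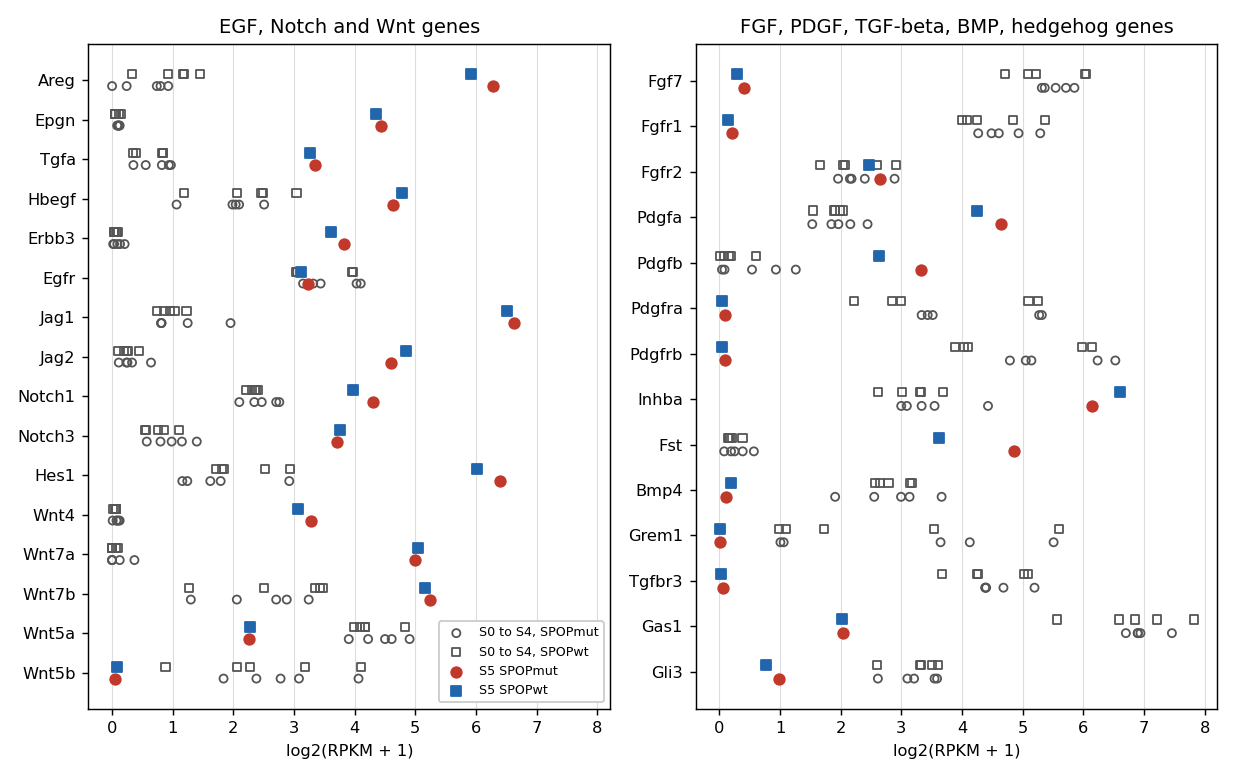
Level of signalling genes (rows) as log2(RPKM + 1), 1 point per library, with open symbols for S0 to S4, filled symbols for S5, circles for SPOPmut and squares for SPOPwt. Areg, Jag1 and Wnt7a lie far to the right in S5, Fgfr1, Pdgfrb and Tgfbr3 near 0 in S5, and Egfr and Fgfr2 overlap.

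In the TGF-beta and BMP list, 27 of 33 were kept, with 4 higher and 5 lower (median -0.30), 4 of the 5 kept only through S0 to S4. Inhba, the activin chain, and Fst, the follistatin that binds activin, were both higher. Inhba stood at 69.9 RPKM in the S5 mutant and 95.9 in the S5 control, against 5.14 to 20.5 (median 8.95) in S0 to S4. Fst was at 28.0 RPKM in the S5 mutant and 11.3 in the control, against 0.0571 to 0.484. Tgfbr3 (betaglycan), Bmp4 and Grem1, a BMP antagonist, were lower, with differences of -4.49, -2.71 and -2.82. The main receptor Tgfbr2 lay below all others by less than the limit (33.8 and 35.8 against 69.9 to 128 RPKM). Inhibitors of the Id family diverged: Id2 was higher (28.8 and 43.1 against 1.13 to 2.47 RPKM) and Id3 lower (2.56 and 1.14 against 9.28 to 38.8 RPKM). Hedgehog genes were few, with 5 of 13 kept. Gas1, Gli3 and Cdon were lower (differences -4.86, -2.36 and -2.60), Smo overlapped (30.5 and 28.6 against 19.3 to 32.2 RPKM), and Ptch1 lay above all others by 0.51. Shh was listed at 0 in all 12 libraries.

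Retinoid genes showed 2 higher and 2 lower of 13 kept and 17 listed (median 0.48), where 4.16% and 4.45% of all kept genes were so counted. Aldh1a3, which makes retinoic acid, and Crabp2, which carries it to the nucleus, were higher (10.8 and 12.6 against 0.158 to 1.76 RPKM and 26.8 and 43.1 against 4.59 to 13.0 RPKM). Crabp1 was lower (0.133 and 0.169 against 0.558 to 27.5 RPKM). Rarg overlapped at 23.5 and 23.6 against 10.6 to 23.9 RPKM.

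Proliferation genes were low in S5. All 20 were kept, with 0 higher and 13 lower (median -2.84), 10 of the 13 kept only through S0 to S4. Mki67 was at 0.631 RPKM in the S5 mutant and 1.65 in the control, against 5.70 to 55.0 (median 42.5). Top2a was at 0.952 and 2.35 against 6.20 to 73.6 (median 55.8). The list mean was 1.37 in the S5 mutant and 1.92 in the S5 control. Pair S3 came next, at 2.77 and 2.32 in mutant and control, and the other 8 libraries stood at 4.19 to 5.10. Mcm3, Mcm5, Rrm2 and Ccne1 overlapped with the others. Ccnd2, a G1 cyclin outside the list, was at 94.3 and 132 RPKM against 21.7 to 38.2 (difference 1.94).

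Within S0 to S4, the libraries did not contribute evenly. Of 120 distinct list genes counted as higher in S5, the highest of the other 10 libraries was the S3 mutant for 41, the S0 mutant for 19 and the S4 mutant for 19. Of 101 counted as lower, it was the S4 mutant for 35 and the S3 control for 16. The S3 mutant level of epithelial genes remained low, at 1.28 RPKM for Epcam, 1.34 for Cdh1 and 3.64 for Cldn4.

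A scan along the chromosomes, chosen after the values were seen, looked for at least 3 kept protein-coding genes in a row, all counted on the same side. Genes that were not kept were passed over, so members of a run need not be direct neighbours. Krt1, for example, was not kept and lies within the type II keratin run. There were 15 such runs of higher genes, with 65 of 540 protein-coding genes counted as higher, and 4 runs of lower genes, with 13 of 572. The longest were the clusters of epithelial gene families: 10 genes in the type II keratin cluster on chromosome 15, 8 in the type I keratin cluster on chromosome 11, and 6 of Prr9 and the Sprr2 genes on chromosome 3. The 4 desmosomal cadherins Dsc3, Dsc2, Dsg3 and Dsg2 on chromosome 18 and the 4 genes Padi1 to Padi4 on chromosome 4, which encode enzymes that convert arginine to citrulline, also formed runs. Among the lower runs were C1rl, C1ra, C1s1 and C1rb, complement proteases on chromosome 6, and Col3a1 with Col5a2 on chromosome 1.

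Another run joined 3 genes of different function on chromosome 4 (GRCm38 positions 89137122 to 89311039). Mtap, an enzyme of methionine salvage, was at 32.7 RPKM in the S5 mutant and 45.8 in the S5 control, against 0 to 0.192 (median 0.00820) in S0 to S4. Cdkn2a, which encodes a cell cycle inhibitor and a p53 activator, was at 3.45 and 3.21 RPKM against 0 to 0.0104 (median 0), and Cdkn2b, a further inhibitor, at 24.3 and 32.2 against 0 to 0.0566 (median 0). All 3 were at or near 0 in each library of S0 to S4. On either side, Ifne, an interferon gene, and Dmrta1 did not exceed 0.252 and 0.218 RPKM in any library. Klhl9 and Plaa, farther out, were present in all 12. Klhl9, on the proximal side, stood at 15.2 and 11.3 RPKM in S5 and 10.2 to 15.8 in the others, and Plaa, on the distal side, at 8.78 and 8.34 against 8.78 to 16.2. No DNA was measured, and the source of these zeros was not tested. Cdkn1a, a cell cycle inhibitor elsewhere in the genome, lay above all others in S5 (163 and 101 against 17.5 to 55.0 RPKM, difference 1.97).

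Of 10 kept genes on chromosome Y, 2 were counted as lower in S5, and 9 lay below all other libraries. Over all kept genes these shares were 4.45% and 26.4%. Ddx3y was at 0.0472 and 0.0894 RPKM in S5 and at 12.7 to 19.2 in the others (median 14.8, difference -3.89). Eif2s3y (0.00362 and 0.0227 against 9.13 to 14.1 RPKM), Kdm5d (0.0117 and 0.0138 against 1.72 to 4.91 RPKM) and Uty (0.0107 and 0.0112 against 1.45 to 3.25 RPKM) were likewise near 0 in S5 alone. The rest were gene models without a function name. Gm21742 (1.47 and 1.55 RPKM against 4.33 to 8.57) and Gm20775 (2.07 and 1.81 against 2.42 to 4.71) were present in S5, and Gm4017 overlapped (2.06 and 1.48 against 1.53 to 2.38). Xist, the RNA of the inactive X chromosome, was also near 0 in S5, at 0.104 and 0.0515 RPKM, and in the others, at 0.00301 to 0.0801. What sets these levels was not tested.

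**Figure D4:**
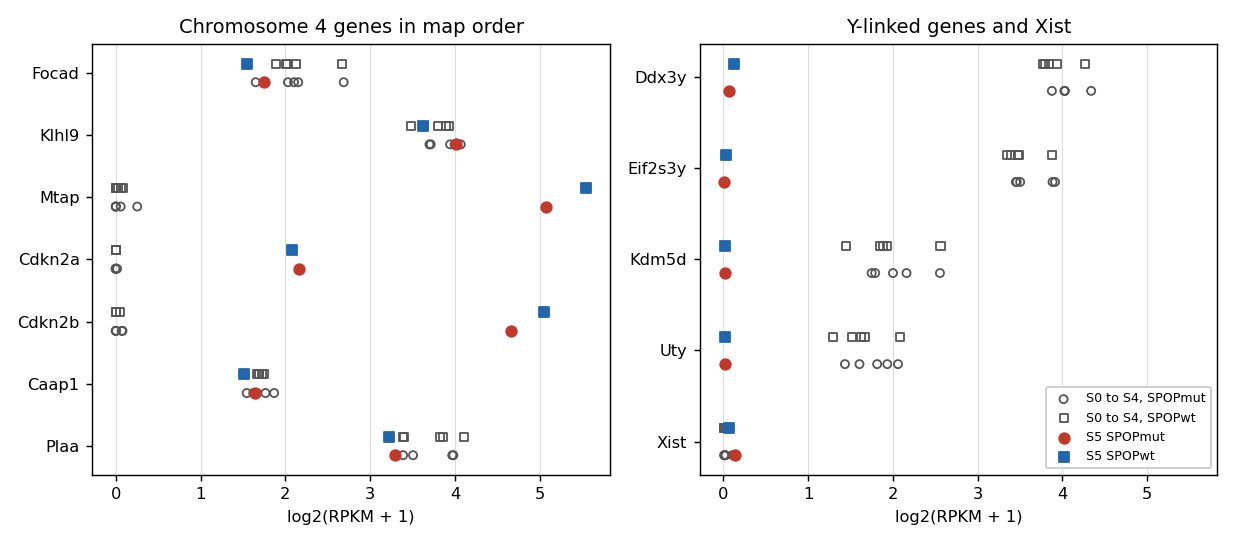
Left, genes of a stretch of chromosome 4 in map order, and right, Y-linked genes and Xist, as log2(RPKM + 1) with 1 point per library (open symbols S0 to S4, filled symbols S5, circles SPOPmut, squares SPOPwt). Mtap, Cdkn2a and Cdkn2b are at or near 0 in every open symbol while the other genes drawn, Focad, Klhl9, Caap1 and Plaa, are above 0 in all libraries, and the 4 Y-linked genes are near 0 in both S5 libraries.

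Whole chromosomes were compared over 5922 genes at 5 RPKM or more in all 12 libraries, whose median difference was -0.04. The chromosome median of S5 minus S0 to S4 was -0.48 for chromosome 1 (300 genes), -0.30 for chromosome 14, -0.29 for chromosome 13, -0.28 for chromosome 3 and -0.27 for chromosome 19. It was 0.29 for chromosome 10 (293 genes) and 0.25 for chromosome 5. The S5 mutant and control were close to each other on these chromosomes, at -0.50 and -0.47 on chromosome 1 and at 0.28 and 0.32 on chromosome 10. Set against the same S0 to S4 mean, single libraries of S0 to S4 stayed between -0.17 and 0.16 on every chromosome. That mean includes these libraries and not S5, which narrows their range, and S5 was chosen as the pair apart. These are descriptions of expressed genes. DNA copy number was not measured.

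**Figure D5:**
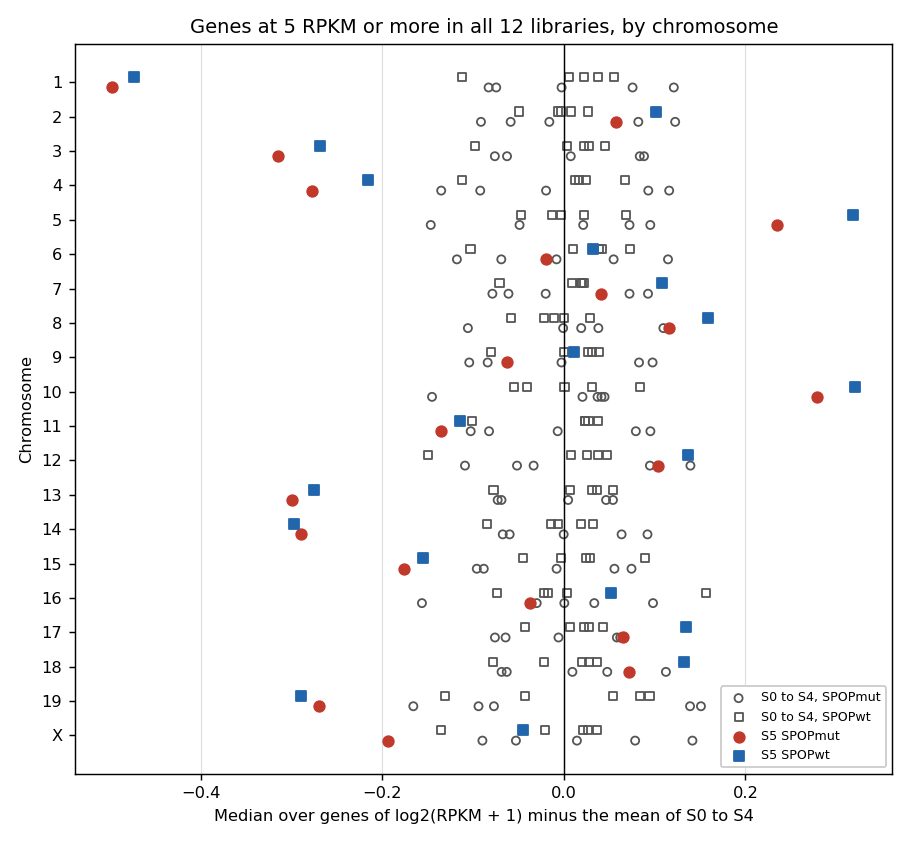
Median over genes, for each chromosome (rows), of log2(RPKM + 1) minus the mean of S0 to S4, 1 point per library, with open symbols for S0 to S4, filled symbols for S5, circles for SPOPmut and squares for SPOPwt. Both S5 libraries lie near -0.5 on chromosome 1 and near 0.3 on chromosomes 5 and 10, outside the range of the other libraries. The mean subtracted includes those other libraries and not S5.

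Within pair S5, the mutant and control differed in a small set of genes. A difference of at least 1 in log2(RPKM + 1) was found for 69 genes higher and 48 lower in the mutant (0.792% of kept genes). The same share was 6.93% in S0 and 0.0677 to 0.65% in S1 to S4. Each is 1 library against 1, with no replicate. Late epithelial genes were prominent on the mutant side. Krt16 was at 175 RPKM in the S5 mutant and 39.6 in the control, Ivl at 115 and 33.9, and Prr9, of the same cluster as the Sprr genes, at 169 and 40.1. Of the 18 kept squamous genes 4 were higher by at least 1 in the mutant and none lower (median 0.56). Calcb, a neuropeptide (8.76 and 25.2 RPKM), Il34, a cytokine (2.03 and 6.98), and Timp3 (3.38 and 9.05) were on the control side. The proliferation list had a median of -0.48, mutant minus control. These genes were picked after their values were seen.

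Whether the mutant-control difference in S5 departs from that in S0 to S4 was tested with limma, with pair as a block and 4 residual degrees of freedom. At an adjusted p under 0.05 (Benjamini-Hochberg over 14776 genes) 56 genes had a more positive difference in S5 (0.379%) and 30 a more negative one (0.203%). Of the 56, 53 were below 1 RPKM in all libraries of S0 to S4, and so were 9 of the 30. For such genes the spread in S0 to S4 is near 0, and it is taken to hold for S5, a single pair, so their p-values are too small. Among the 11251 genes at 1 RPKM or more in all 12 libraries, limma called 0 genes, with 1087 at an unadjusted p under 0.05. With genes at 1 RPKM or more in at least 6 of the 12 libraries it called 4.

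Krt16 was among the genes near 0 outside S5: its coefficient was 2.10 (SE 0.12, limma adjusted p = 0.00459), made of a difference of 2.12 in S5 and a mean of 0.01 in the others. Ces2e and Ces2f, carboxylesterases, had coefficients of 1.52 and 1.35, and Dmkn, dermokine of stratified epithelium, 1.12. Prl2c3, a placental prolactin-family gene (proliferin), was expressed on both sides, at 21.5 RPKM in the S5 mutant and 0.558 in the control against 7.54 to 35.5 in the others. The mutant minus control difference was 3.85 in S5 and -1.19 to -0.45 in S0 to S4 (coefficient 4.69, SE 0.31, limma adjusted p = 0.00663). Prl2c3 has near-identical copies, so its count is uncertain. Timp3 went the other way, with -1.20 in S5 and 0.35 to 0.59 in the others (coefficient -1.66, SE 0.14, limma adjusted p = 0.0129). Timp3 lies within Syn3 on the opposite strand, and the library kit does not mark strand, so reads of these genes cannot be told apart where they overlap. Syn3 had -0.73 in S5 and 0.35 to 0.58 in the others (coefficient -1.18). Prl2c3 was still called under the filter on 6 libraries. Timp3 was not.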

How the data were processed

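RNA from 12 organoid libraries (6 SPOPmut, 6 SPOPwt, pairs S0 to S5) was prepared with a TruSeq RNA kit that does not mark strand, per the labels' protocols. The deposited values are RPKM per gene name, made by the authors and taken from 1 file per library. STAR 2.4.0j, mm10 and GRCm38 are listed in the submitters' processing notes. Which program and annotation gave the values, and how reads shared between similar genes were handled, is not stated in those notes or the labels. RPKM is relative to the other genes of a library: the 10 most abundant took 7.99 to 14.7% of the sum (14.5 and 14.7% in S5). An RPKM of 1 for a transcript of 2 kb corresponds to 56.5 to 82.0 reads by the depth estimate.

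Values were analysed as log2(RPKM + 1), which understates differences of low genes, in Python 3.11.15 (pandas 2.3.3, numpy 2.4.6, matplotlib 3.10.9) and R 4.3.3. A gene was kept where both S5 libraries, or 5 or more of the other 10, reached an RPKM of 1. The S5 side was described by differences and overlap, with no test. limma 3.58.1 (trended, robust prior) tested only the genotype by S5 term, with pair as a block, at an adjusted p under 0.05. On simulated data of the same 14776 genes it recovered 24% of genes with a 2-fold, 84% with a 4-fold and 96% with a 16-fold added difference (50 genes each), with 11 false calls. Every simulated library, S5 included, was given the gene's spread in S0 to S4, and differences were added only to genes above a set level in S5. These figures hold only if S5 has that spread, which a single pair cannot show.

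The members and the 29 gene lists were chosen with earlier results of these data known. The genes named were drawn from Krt5, Epcam, Col1a1 and Vim, up to 6 list members of largest difference in each direction and the 2 most abundant uncounted ones, the 15 genes of largest difference each way, and up to 12 genes each way for the genotype term. Some of these are left unnamed, and other genes were named after their values were seen. The values of 7 listed genes are not reported here, though the lists' counts and medians include them. Pairs come from the labels' numbers. Deviations of same-numbered libraries from their group means correlated at 0.147 in S0 and at 0.777 to 0.964 in the others. The group means include S5, which gives the libraries of S0 to S4 a shared shift, and differently numbered libraries were not compared. These correlations therefore cannot show that the numbers mark pairs. No libraries were merged as duplicates: the lowest median chi-square between libraries of a group was 1.28 (S1 and S2 controls), against 0.455 from sampling. The S1 and S2 mutants followed at 2.24, and the next lowest was 9.15 (S0 and S2 controls). Pairs S1 and S2 were thus far closer to each other than other pairs were. Whether they are independent is not stated, and limma counted them as separate pairs. Positions are from GENCODE M21 on GRCm38, which held 39342 of the gene names, and promoters from RefSeq on GRCm38.p6. Alternatives were another pseudocount, other filters, 2 rescalings, no block and leaving out each pair.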

Additional observations from a re-analysis of the deposited data

Results flagged for a closer look

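In 10 of 228 genes examined, 1 of the 10 libraries of S0 to S4 lay apart from the rest by Dixon's criterion (its gap to the nearest library divided by the range of the 10, against the tabulated value at the 95% level). Chance gives this in about 1 in 20 groups. In 8 of the 10 the library was from pair S0. The S0 mutant was highest for Aldh1a3 (ratio 0.699, 1.76 RPKM against 0.158 to 0.504), Gdf15 (0.494, 3.12 against 0.565 to 1.55) and Perp (0.631, 2.16 against 0.218 to 0.73). It was lowest for Csf1r (0.651, 1.09 RPKM against 1.53 to 1.80). The S0 control was lowest for Ccl2 (0.558, 197 RPKM against 485 to 992), Errfi1 (0.507, 56.2 against 84.3 to 125), Gm21742 (0.566, 4.33 against 6.42 to 8.57) and Hoxa10 (0.493, 12.2 against 15.3 to 19.1). The S4 mutant was highest for Jag1 (0.586, 2.87 against 0.678 to 1.37) and Ncam1 (0.591, 14.7 against 4.52 to 7.47).

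The 24 genes given here for the limma term for genotype and S5 are a part of those called. They are the 12 of smallest p in each direction, with gene models without a name left out. S5 is a single pair, so none of these differences has a replicate on the S5 side. The p-values of genes near 0 in S0 to S4 are too small, because the spread there is near 0. Among genes at 1 RPKM or more in all 12 libraries limma called 0, with 1087 at an unadjusted p under 0.05, and without pair S2 it called 1. The coefficients on the log2(RPKM + 1) scale were 4.69 for Prl2c3, 2.10 for Krt16, 1.54 for Clca5, 1.52 for Ces2e, 1.35 for Ces2f, 1.34 for Dok2, 1.25 for Slitrk6, 1.24 for Fam167a, 1.22 for Scgb1a1, 1.19 for Nppc, 1.12 for Dmkn and 1.05 for Tnf. Of these 12, 11 were below 1 RPKM in all libraries of S0 to S4, and Nppc was listed at 0 there. Prl2c3 was the exception. On the negative side they were -1.66 for Timp3, -1.20 for Akap12, -1.18 for Syn3, -1.10 for Rpl22l1, -0.97 for Rps12l2, -0.96 for Rps12l1, -0.94 for Socs2, -0.79 for Tmem171, -0.75 for Fut1, -0.75 for Rpl32, -0.68 for Padi1 and -0.59 for Lrrc26. Of these 12, 5 were below 1 RPKM in all libraries of S0 to S4, namely Tmem171, Lrrc26, Socs2, Fut1 and Padi1. Ribosomal protein genes have near-identical copies, so the values of Rpl32, Rps12l1, Rps12l2 and Rpl22l1 are uncertain.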

How the results depend on the processing

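Counts for S5 against S0 to S4 moved mainly with the scale and the limits. With a pseudocount of 0.1, 1088 genes were higher and 1239 lower, in place of 615 and 658. Keeping genes at 1 RPKM in at least 6 of 12 libraries left 207 higher, since genes high only in S5 cannot pass it, and 658 lower. At a difference of at least 1 there were 1673 higher and 1901 lower, and at 3 there were 294 and 264 (both limits chosen after seeing the data). Rescaling by median of ratios gave 628 and 643, and quantile normalization 633 and 654. Leaving out a pair or an S5 library gave 616 to 670 higher and 634 to 696 lower. These settings gave 3633 comparisons over 212 genes picked by the naming rule and 99 other genes of the text. Of these, 389 moved by more than the spread, and 0 differences of counted genes reversed sign. The counting rule places both S5 libraries above, or both below, every other library. Another pseudocount, another filter or leaving out libraries therefore could not reverse the sign of a counted gene. Only median-of-ratios scaling and quantile normalization could have done so.

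The 86 genes called for genotype and S5 depended on the setting. They became 6 with a pseudocount of 0.1, 4 with the filter on 6 libraries, 2767 with no filter, 130 with no replicate block, and 0 with genes at 1 RPKM in all 12 (added after seeing the data). Leaving out 1 pair gave 1 to 274: 274 without S0, 15 without S1, 1 without S2, 4 without S3 and 10 without S4. For the 24 named genes no coefficient reversed, and 124 of 254 comparisons were no longer past the threshold. The causes were not tested beyond the removed genes and samples. Depth limits values near 0, where a few reads set the RPKM.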

Other observations

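Cytokine genes were split between the sides, a group picked from the largest differences and not among the lists. Ppbp, a neutrophil-attracting chemokine, stood at 1286 RPKM in the S5 mutant and 2088 in the S5 control, against 0.0603 to 4.50 in S0 to S4 (difference 9.60). Cxcl1, another neutrophil chemokine, stood at 310.5 and 330.0 RPKM against 0.219 to 4.19 (difference 7.13), and Il1a, an epithelial alarm cytokine, at 143 and 182 against 0.0141 to 0.18 (difference 7.24). On the other side were Ccl2 and Ccl7, monocyte chemokines, at 0.441 and 0.422 RPKM against 197 to 992 (difference -8.61) and at 0.24 and 0.0908 against 139 to 356 (difference -7.70). Cxcl12, a stromal chemokine, was at 0.0959 and 0.0551 RPKM against 47.6 to 376 (difference -6.76). Saa3, an acute phase protein, was at 0.91 and 0.478 RPKM in S5 and varied widely elsewhere, from 9.74 in the S0 control to 1186 in the S3 control. These 7 genes were drawn from those counted as higher or lower, and that count itself requires that S5 and the other libraries do not overlap.

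Other genes of large difference without a place in the lists were S100a14 (311 and 381 RPKM against 0.184 to 1.33), Atg9b (497 and 435 against 0.665 to 2.50) and Dynap (149 and 117 against 0 to 0.0217) on the S5 side, and Dpt, dermatopontin of connective tissue (0.197 and 0.0425 against 85.6 to 263), and Mxra8 (0.114 and 0.182 against 39.5 to 210.3) on the other. Lgals1, galectin-1, was among the most abundant transcripts of S0 to S4 (1732 to 3595 RPKM) and stood at 27.6 RPKM in the S5 mutant and 60.3 in the S5 control.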
